A study of Mus musculus with 6 samples.

Results

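Tissue residency genes, 10 of the 32286 genes counted, were followed in single immune cells of mouse liver: the integrins Itgae and Itga1, the surface molecule Cd69, the transcription factors Zfp683, Prdm1, Runx3, Ahr and Hic1, and the G protein regulators Rgs1 and Rgs2. They were taken by name, and none was used to define a cell class. Droplet RNA sequencing with antibody tags on the same cells was run on 3 libraries, 1 per group, all at day 30 after infection, and each library pooled 3 tumor samples. The first group was mock infected, and its label calls the liver native although the design text speaks of tumor bearing livers. The second group received AAV-sgSCR, in which the vector (an adeno-associated virus, AAV) brought the guide named SCR, and the third AAV-sgBaat, whose guide is named for Baat, the liver enzyme that joins bile acids to amino acids. Age, sex and strain of the mice are not given in the sources used here, nor is the method that gave rise to the tumors. T cells (CD45hi CD3+) and the remaining CD45hi cells were sorted separately, so numbers of cells per class were set in part by the sort.

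Resident lymphocytes stay in an organ instead of recirculating through blood and lymph. CD69 keeps a cell in tissue by pulling the egress receptor S1PR1 from its surface, CD103 (encoded by Itgae) binds E-cadherin on epithelial cells, and CD49a (Itga1) binds collagen. Hobit (Zfp683), Blimp1 (Prdm1), RUNX3, AHR and HIC1 are transcription factors tied to residency programmes in several organs, and RGS1 and RGS2 dampen signals from chemokine and other G protein coupled receptors. The liver holds resident type 1 innate lymphoid cells (ILC1) and natural killer T (NKT) cells beside circulating natural killer (NK) cells, and CD49a is a standard mark of its ILC1.

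Barcodes with at least 500 genes, at least 1000 gene UMIs (unique molecular identifiers, 1 per captured RNA molecule) and at most 10% mitochondrial UMIs were kept, 6068 of 6431 in mock, 7332 of 8073 in AAV-sgSCR and 7094 of 9386 in AAV-sgBaat, with 17, 10 and 25 barcode sequences shared between pairs of libraries. The libraries held 32005400, 62570529 and 48359443 gene UMIs. Class levels are summed UMIs as CPM, that is per 1000000 gene UMIs of the class. Cells were classed by UMIs of marker genes and by which of the antibody tags CD90.1 and CD90.2, the 2 allelic forms of Thy-1, dominated on CD8 T cells. The labels do not say which cells carry which allele. CD90.1-dominant CD8 cells numbered 829 in AAV-sgSCR and 205 in AAV-sgBaat, and the 12 in mock entered no comparison. CD90.2-dominant CD8 cells numbered 478, 612 and 317 in mock, AAV-sgSCR and AAV-sgBaat, gamma-delta T cells 68, 65 and 43, NK cells 424, 105 and 101, and ILC1 87, 126 and 78. NKT cells numbered 134 in mock and 20 in AAV-sgSCR, and the 5 in AAV-sgBaat entered no comparison.

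Genes outside the gates fitted the names of NK cells and ILC1, and in part that of gamma-delta cells. None is given here for NKT cells. Eomes, a factor of NK cells, stood at 377, 184 and 189 CPM in NK cells of mock, AAV-sgSCR and AAV-sgBaat, against 26.8, 13.9 and 12.8 in ILC1. Cxcr6, the receptor that holds lymphocytes in liver sinusoids, stood at 183, 142 and 135 in ILC1 against 8.12, 4.55 and 5.99 in NK cells. Trac, of the alpha-beta receptor, remained at 115, 69.6 and 69.8 in gamma-delta cells, against 383, 489 and 476 in CD90.2-dominant CD8 cells. Of the 68, 65 and 43 gamma-delta cells, 50, 51 and 33 held no Trac UMI. The neutrophil genes S100a8 and S100a9, which lymphocytes do not make, summed to between 0 and 7.54 CPM over the classes of mock, to between 361 and 436 in AAV-sgSCR and to between 135 and 314 in AAV-sgBaat. Barcodes with clear RNA of another lineage were left out, which removed 41.6% (AAV-sgSCR) and 57.8% (AAV-sgBaat) of CD90.1-dominant CD8 cells, against 14.0%, 21.4% and 22.3% of CD90.2-dominant cells in mock, AAV-sgSCR and AAV-sgBaat.

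On GRCm38.p6 (RefSeq gene spans) the integrin genes lie at chr11:73090505-73147449 (Itgae, ENSMUSG00000005947) and chr13:114958079-115101964 (Itga1, ENSMUSG00000042284). Cd69 (ENSMUSG00000030156) lies at chr6:129267324-129275375. Rgs1 (ENSMUSG00000026358) and Rgs2 (ENSMUSG00000026360) both lie on chromosome 1, at chr1:144244669-144249104 and chr1:143999338-144004149. Of the transcription factors, Zfp683 (ENSMUSG00000049410) and Runx3 (ENSMUSG00000070691) share chromosome 4, at chr4:134051195-134058941 and chr4:135120645-135177990. Prdm1 (ENSMUSG00000038151) lies at chr10:44437174-44528558, Ahr (ENSMUSG00000019256) at chr12:35497979-35534989 and Hic1 (ENSMUSG00000043099) at chr11:75161377-75170255. Reads of an exon, intron or UTR are not told apart in these counts.

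RefSeq promoter windows on GRCm38.p6 matched 5 of the 10 genes (Hic1, Itga1, Prdm1, Rgs2 and Runx3). The 250 bases before the outermost start are shown for the 4 genes whose window lies outside the annotated gene body, since Itga1, Hic1 and Rgs2 carry the differences between classes described below and Runx3 is a lineage factor of CD8 and NK cells. Capitals mark matches to the RUNX motif TGTGGT or the AHR element core GCGTG on either strand.
Itga1, chr13:115101965-115102214, minus strand: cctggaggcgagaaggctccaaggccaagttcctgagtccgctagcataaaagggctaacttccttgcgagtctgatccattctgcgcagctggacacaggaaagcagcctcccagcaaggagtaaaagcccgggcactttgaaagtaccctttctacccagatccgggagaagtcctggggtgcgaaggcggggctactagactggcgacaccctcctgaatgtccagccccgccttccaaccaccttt
Hic1, chr11:75170256-75170505, minus strand: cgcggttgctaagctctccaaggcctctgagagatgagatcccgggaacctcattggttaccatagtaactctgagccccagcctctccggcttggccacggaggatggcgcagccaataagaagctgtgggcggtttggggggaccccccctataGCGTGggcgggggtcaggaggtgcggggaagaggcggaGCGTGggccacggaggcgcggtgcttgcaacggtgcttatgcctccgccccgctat
Rgs2, chr1:144004150-144004399, minus strand: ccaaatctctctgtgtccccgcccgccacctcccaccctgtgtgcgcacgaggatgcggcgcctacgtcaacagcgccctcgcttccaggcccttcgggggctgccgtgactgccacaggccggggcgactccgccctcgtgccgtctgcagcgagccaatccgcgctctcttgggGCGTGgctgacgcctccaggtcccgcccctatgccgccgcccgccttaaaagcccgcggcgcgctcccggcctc
Runx3, chr4:135120395-135120644, plus strand: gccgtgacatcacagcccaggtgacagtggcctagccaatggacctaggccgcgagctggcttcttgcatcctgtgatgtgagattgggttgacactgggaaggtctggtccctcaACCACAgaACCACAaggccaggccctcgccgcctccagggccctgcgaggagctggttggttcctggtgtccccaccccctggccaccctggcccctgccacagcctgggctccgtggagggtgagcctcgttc

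The Itga1 window held none of the 3 motifs searched on both strands, the third being the AP-1 motif TGANTCA. The Hic1 window held the AHR core at 2 places and the Rgs2 window at 1. The Runx3 window, which precedes its distal start, held the RUNX motif 2 times as ACCACA, with 2 bases between the copies. Among 32851 promoter windows of the same length, 28.2% held the AHR core, 14.0% the RUNX motif and 6.75% the AP-1 motif, so such matches are common. GC content was 57.6% for Itga1, 64.4% for Hic1, 72.4% for Rgs2 and 65.2% for Runx3, against a median of 52.4% over all windows.

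**Figure D1:**
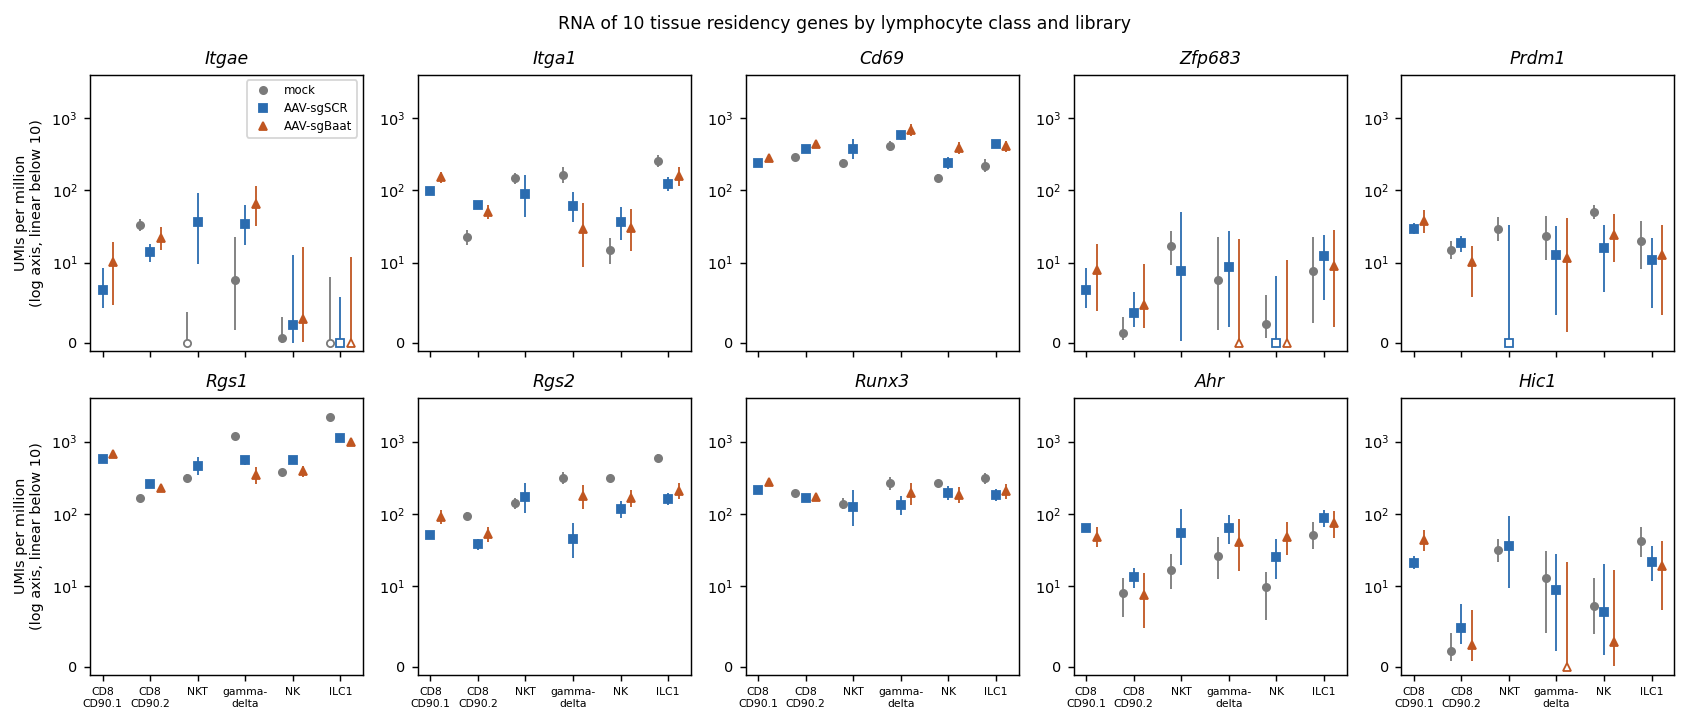
Level in CPM (log axis, linear below 10) of each of the 10 genes in 6 lymphocyte classes, 1 point per library with its exact Poisson 95% interval. Open points are sums of 0 UMIs, and classes with fewer than 20 cells are not drawn. Itga1 and Rgs1 are highest in ILC1 of mock, at 257 and 2206, while Itgae is at 0 in ILC1 of every library.

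Of the adhesion molecules, Itga1 RNA was found in the innate lymphoid, NKT, gamma-delta and CD8 classes, and Itgae RNA mostly in T cells. Values in brackets are exact Poisson 95% intervals in CPM, which cover counting error only. Itga1 CPM in ILC1 stood at 257 (212 to 309) in mock, 123 (97.9 to 154) in AAV-sgSCR and 157 (116 to 208) in AAV-sgBaat. In NK cells the Itga1 level was 15.1 (9.85 to 22.1), 36.4 (20.8 to 59.2) and 30.0 (14.4 to 55.1). The ILC1 intervals lie above the NK intervals in all 3 libraries. Gamma-delta cells had Itga1 at 164 (126 to 210), 60.1 (36.2 to 93.8) and 29.1 (9.45 to 67.9), the widest range of any class. NKT cells had 146 (123 to 172) in mock and 89.9 (43.1 to 165) in AAV-sgSCR. The CD8 classes differed in where Itga1 was high. CD90.1-dominant cells had 99.2 (90.3 to 109) in AAV-sgSCR and 152 (127 to 180) in AAV-sgBaat, and CD90.2-dominant cells 22.4 (17.5 to 28.3), 63.1 (55.0 to 71.9) and 50.6 (39.8 to 63.6). In mock the Itga1 order was ILC1, gamma-delta, NKT, CD90.2-dominant CD8 and NK. The gamma-delta and NKT intervals overlap there, as do those of the CD8 and NK cells.

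Itgae was not counted once in ILC1, where 3 UMIs would be 6.71, 4.63 and 9.62 CPM in mock, AAV-sgSCR and AAV-sgBaat, and each NK sum held 1 UMI. Its level in CD90.2-dominant CD8 cells was 33.4 (27.4 to 40.4) in mock, 13.9 (10.3 to 18.4) in AAV-sgSCR and 21.9 (15.0 to 30.9) in AAV-sgBaat. CD90.1-dominant cells had 6.54 (4.41 to 9.34) in AAV-sgSCR and 10.3 (4.70 to 19.5) in AAV-sgBaat. Gamma-delta cells ran the other way across libraries, with 7.81 (1.61 to 22.8), 34.8 (17.4 to 62.2) and 64.0 (32.0 to 115), from 3, 11 and 11 UMIs. NKT cells of mock held no Itgae UMI, where 3 would be 3.17 CPM, and those of AAV-sgSCR held 4 UMIs in 3 cells.

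Cd69 RNA was present in every class, B cells included. Its level ran from 147 (129 to 166) in mock NK cells to 681 (563 to 816) in AAV-sgBaat gamma-delta cells. B cells of the same libraries, which lack Itgae, Itga1 and Zfp683 at 0 UMIs each, had Cd69 at 487, 313 and 402. With every cell thinned to 1000 UMIs, a Cd69 UMI was found in 14.9%, 23.8% and 30.8% of ILC1 of mock, AAV-sgSCR and AAV-sgBaat and in 35.5%, 26.0% and 33.3% of B cells. Without thinning the ILC1 shares were 54.0%, 65.1% and 57.7%.

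Of the regulators of G protein signalling, Rgs1 had its peak in ILC1. It stood there at 2206 (2070 to 2348) in mock, 1108 (1028 to 1192) in AAV-sgSCR and 975 (869 to 1091) in AAV-sgBaat. NK cells had Rgs1 at 377, 556 and 393, and gamma-delta cells at 1203, 550 and 343. Rgs1 was 574 and 673 in CD90.1-dominant cells of AAV-sgSCR and AAV-sgBaat, and 167, 261 and 230 in CD90.2-dominant cells. B cells held 129, 24.7 and 19.6, below every lymphocyte class listed here in the same library. Rgs2 stood in ILC1 at 595 (526 to 671), 162 (133 to 196) and 209 (161 to 266). Rgs2 in B cells stood at 487, 235 and 266, so its level there was near or above that of ILC1 in the AAV libraries.

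Among the transcription factors, Runx3, which supports CD8 and NK lineage genes, was present at 126 to 309 CPM in every class and library compared. Its B cell level was 42.0, 16.3 and 19.6. Hic1, a zinc finger repressor, stood in CD90.1-dominant cells at 21.2 (17.2 to 25.8) in AAV-sgSCR and 43.4 (30.7 to 59.6) in AAV-sgBaat, in ILC1 at 42.5 (25.6 to 66.4) in mock, 21.6 (11.8 to 36.2) in AAV-sgSCR and 19.2 (7.06 to 41.9) in AAV-sgBaat, and in NKT cells at 31.7 (21.4 to 45.3) in mock and 36.0 (9.80 to 92.1) in AAV-sgSCR. CD90.2-dominant cells had Hic1 at 1.89, 4.83 and 2.74, from 6, 17 and 4 UMIs. Ahr, a receptor for dietary and microbial aromatic ligands, ran from 8.90 (4.74 to 15.2) in AAV-sgBaat CD90.2-dominant cells to 87.9 (66.6 to 114) in AAV-sgSCR ILC1. Prdm1 was highest in mock NK cells at 50.4 (40.4 to 62.2), against 20.1 (9.21 to 38.2) in mock ILC1. Zfp683 was sparse, with at most 30 UMIs in any class, those of AAV-sgSCR CD90.1-dominant cells at 6.54 (4.41 to 9.34). Mock NKT cells had Zfp683 at 16.9 (9.67 to 27.5) against 1.26 (0.344 to 3.23) in mock CD90.2-dominant CD8 cells. It did not pass the filter on low counts and was not tested.

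Classes were compared with edgeR's quasi-likelihood test on UMIs summed per library and class, 16 sums in all, with the library as a block and Benjamini-Hochberg adjustment over all 7194 genes tested at a threshold of 0.05. The replicates of a class are 2 or 3 libraries of different treatment. The tests set a class difference against a spread over libraries that is estimated from all classes together. That spread is not the one of the named difference alone. The class means were fitted over all libraries that hold the class, and fold changes are on the log2 scale after TMM scaling, with standard errors (SE). Of the 10 genes 9 passed the filter.

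**Figure D2:**
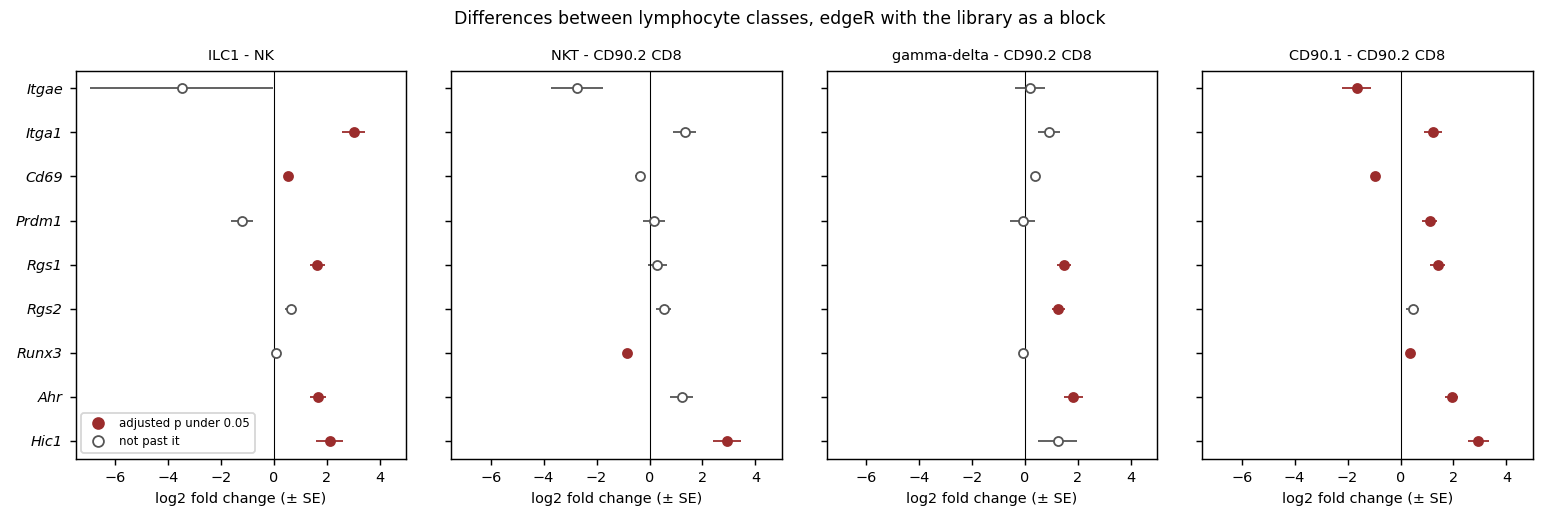
Log2 fold changes with SE of the 9 tested genes in 4 comparisons of classes from the edgeR fit. Filled red points passed an adjusted p of 0.05 and open points did not. Hic1 is filled and to the right of 0 in 3 of the 4 panels, and the wide Itgae bar in ILC1 minus NK comes from an ILC1 count of 0.

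ILC1 were higher than NK cells for 5 of the 9 tested genes and lower for none, against 3.95% of all genes called higher and 3.52% called lower. Itga1 differed most, by 3.01 (SE 0.445, adjusted p = 3.5e-05), and within the libraries its log2 ratio was 4.09 in mock, 1.76 in AAV-sgSCR and 2.39 in AAV-sgBaat. Hic1 was higher in ILC1 by 2.10 (SE 0.522, adjusted p = 0.00973), from levels of 42.5, 21.6 and 19.2 against 7.54, 6.83 and 3.00 CPM. Its call was lost when NK lineage cells were split by Klra genes alone (1.57, adjusted p = 0.0638) and without the mock library (2.01, adjusted p = 0.213). Ahr was higher by 1.66 (SE 0.308, adjusted p = 0.000602), with 51.5, 87.9 and 73.8 CPM in ILC1 against 9.86, 25.0 and 47.9 in NK cells, and its call was lost when cells were thinned to 1000 UMIs (1.79, adjusted p = 0.0832). Rgs1 was higher by 1.64 (SE 0.271, adjusted p = 0.000153), and its within-library ratios were 2.55, 1.0 and 1.31. Cd69 passed at 0.54 (SE 0.162, adjusted p = 0.0405), lost the call under 8 alternatives, leaving out mock (0.49) or AAV-sgSCR (0.32) among them, and turned to -0.11 when cells were thinned to 1000 UMIs. Rgs2 (0.62, adjusted p = 0.0813, and 0.67 with adjusted p = 0.0157 without AAV-sgSCR), Prdm1 (-1.22, adjusted p = 0.076) and Runx3 (0.07, adjusted p = 0.918) did not pass.

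Genes of circulation moved against the integrin in the same comparison. Of 15 genes tied to circulation, 11 were lower in ILC1 and none higher, with a median log2 fold change of -1.87 against 0.00 over all genes. Klf2, the factor that drives S1pr1, was lower at -1.87 (adjusted p = 6.68e-10). The largest falls were Klrg1 at -4.43, Elovl7 at -3.85 and Eomes at -3.81. S1pr1, the egress receptor itself, did not pass (-0.43, adjusted p = 0.858). It rests on 1, 3 and 8 UMIs in ILC1 and 21, 7 and 7 in NK cells of mock, AAV-sgSCR and AAV-sgBaat. Its within-library log2 ratios were -2.44, -1.78 and 0.29, each with an interval that includes 0. Of 20 tested genes of a wider residency list, 7 were higher and 3 lower. The ATP receptor P2rx7 at 5.06, the phosphatase Inpp4b at 4.47 and Cxcr6 at 4.25 led this list. Eomes and Cxcr6 were used above to check the names of these classes, so neither is separate evidence on circulation or residency. Of 7 genes of transforming growth factor beta signalling the receptor Tgfbr1 passed as higher and none as lower, Tgfbr1 by 1.06 (adjusted p = 0.039).

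NKT cells differed from CD90.2-dominant CD8 cells in 2 of the 9 tested genes, 1 higher and 1 lower, where 4.05% and 4.35% of all genes were called. Hic1 was higher by 2.92 (SE 0.539, adjusted p = 0.000629), with 31.7 and 36.0 CPM in NKT cells of mock and AAV-sgSCR. Runx3 was lower at -0.83 (SE 0.178, adjusted p = 0.00289), with 138 and 126 against 197 and 168. Without mock, with 20 NKT cells left, Hic1 was 2.90 (adjusted p = 0.238) and Runx3 -0.66 (adjusted p = 0.475). Runx3 also lost its call when cells were thinned (-0.32, adjusted p = 0.684) and without the library block (-0.69, adjusted p = 0.216). Itga1 at 1.33 (SE 0.427, adjusted p = 0.0534) and Ahr at 1.22 (adjusted p = 0.0922) lay outside the threshold, and without AAV-sgSCR Itga1 passed at 1.85 (adjusted p = 0.0005) and Itgae at -7.94 (adjusted p = 0.000269), the latter fitted to an NKT count of 0. With all libraries Itgae was -2.73 (adjusted p = 0.0905), and without mock it was 1.08. Rgs2, at 0.54 with all libraries (adjusted p = 0.314), passed at 1.95 without mock (adjusted p = 0.0089). Of the circulation genes 11 of 15 were lower and none higher (median -2.19), among them Ccr7 at -5.45, S1pr1 at -3.40 and Klf2 at -2.48. Of 20 wider residency genes 8 were higher and 2 lower, with P2rx7 at 2.56 and Cxcr6 at 1.99 up and Nr4a2 at -1.99 down. Of 13 heat shock and immediate early genes 5 were higher and none lower, led by Hspa1a at 2.32, Fosb at 1.18 and Dusp1 at 1.13. Without TMM scaling all genes shifted by 0.24 at the median in this comparison, and the share of called genes that were higher moved from 48.2% to 77.3%.

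Gamma-delta cells were higher than CD90.2-dominant CD8 cells for 3 of the 9 genes, and lower for none, against 3.68% of all genes called higher and 2.57% called lower. Ahr rose by 1.82 (SE 0.358, adjusted p = 0.00161), from levels of 26.0, 63.2 and 40.7 against 9.15, 13.3 and 8.90 CPM. Its call was lost without AAV-sgSCR (1.54, adjusted p = 0.113), when cells were thinned (2.05, adjusted p = 0.0883) and without the library block (1.81, adjusted p = 0.0718). Rgs1 rose by 1.47 (SE 0.278, adjusted p = 0.000998), with within-library ratios of 2.85, 1.08 and 0.58. Rgs2 rose by 1.26 (SE 0.248, adjusted p = 0.00165), but by 0.88 without mock (adjusted p = 0.0744). With barcodes of mixed lineage kept, Rgs1 and Rgs2 lost the call (1.11 and 0.84, adjusted p = 0.119 and 0.155). Itga1 differed by library, with ratios of 2.87 (2.36 to 3.38) in mock, -0.07 (-0.83 to 0.61) in AAV-sgSCR and -0.80 (-2.46 to 0.49) in AAV-sgBaat, and its pooled value of 0.91 did not pass (adjusted p = 0.252). Pooled without mock it was -0.44, and without AAV-sgSCR 1.58 (adjusted p = 0.00797). Cd69 at 0.39 (adjusted p = 0.143) passed without mock at 0.44 (adjusted p = 0.0405). Of 20 tested wider residency genes 3 were higher and none lower, Cxcr6 by 1.41, Xcl1 by 1.05 and Bhlhe40 by 0.90. Circulation genes were lower in 4 of 15 cases and higher in none. Ccr7, the lymph node chemokine receptor, was lower at -2.06, Slamf6 at -1.50 and Sidt1 at -1.0, while S1pr1 (-0.67, adjusted p = 0.236) and Klf2 (-0.45, adjusted p = 0.0555) did not pass. Heat shock and immediate early genes, which rise within minutes of stress or stimulation, were higher for 7 of 13, led by Atf3 at 2.07, Dusp1 at 1.41 and Jun at 1.26. Without TMM scaling the median gene shifted by 0.18 and the share of called genes that were higher moved from 58.9% to 79.0%.

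In CD8 T cells, CD90.1-dominant cells had more Hic1, Ahr, Rgs1, Itga1, Prdm1 and Runx3 RNA and less Cd69 and Itgae RNA than CD90.2-dominant cells. This comparison called 8.98% of all genes higher and 8.9% lower, a high background for 6 and 2 of 9 genes. Hic1 was higher by 2.94 (SE 0.409, adjusted p = 6.05e-06) and Ahr by 1.93 (SE 0.249, adjusted p = 1.79e-06), and neither lost its call under an alternative in which it was tested. Hic1 was too sparse to be tested in thinned cells. Ahr stood at 64.5 and 48.0 in CD90.1-dominant cells of AAV-sgSCR and AAV-sgBaat against 13.3 and 8.90 in CD90.2-dominant cells. Rgs1 was higher by 1.41 (SE 0.283, adjusted p = 0.00064), Itga1 by 1.22 (SE 0.326, adjusted p = 0.00834) and Prdm1 by 1.11 (SE 0.279, adjusted p = 0.00538). Without AAV-sgBaat Itga1 was 1.02 (adjusted p = 0.117) and Prdm1 0.87 (adjusted p = 0.146), and both also lost the call without the library block (1.28 and 0.95) and with DESeq2 (1.32 and 1.21). All 3 calls were lost with mixed-lineage barcodes kept (0.85, 0.87 and 0.77), and CD90.1-dominant cells are the class from which most such barcodes were removed. Runx3 at 0.37 (SE 0.131, adjusted p = 0.0482) lost its call under 14 alternatives, without any 1 of the 3 libraries among them (0.27 to 0.54). Cd69 was lower at -0.96 (SE 0.164, adjusted p = 9.5e-05), with 237 and 281 against 379 and 437 CPM, a call lost without the library block (-0.69, adjusted p = 0.318). Itgae was lower at -1.66 (SE 0.557, adjusted p = 0.0395), a call lost under 7 alternatives, without AAV-sgSCR (-1.74) or AAV-sgBaat (-1.86) among them. Within the libraries its log2 ratio was -1.09 in AAV-sgSCR (-1.80 to -0.40) and -1.09 in AAV-sgBaat (-2.34 to 0.01). The ratios of Cd69 were -0.68 and -0.64. For both genes the pooled fall is thus larger than the fall within either library, which is without TMM scaling. Of these CD8 classes, mock entered the pooled fit with CD90.2-dominant cells only.

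Egress genes were low in CD90.1-dominant cells. S1pr1 stood at 4.14 and 4.57 CPM in AAV-sgSCR and AAV-sgBaat against 81.5 and 93.7 in CD90.2-dominant cells, a log2 fold change of -4.60 (adjusted p = 2.85e-09). Klf2 was lower at -2.93. In all, 13 of 15 circulation genes were lower and none higher (median -3.25). Of 20 wider residency genes 8 were higher and 1 lower, led by Chn2 at 3.01, Osgin1 at 2.76 and the nuclear receptor Nr4a2 at 2.54. The within-library log2 ratio of Cxcr6 was 1.04 in AAV-sgSCR and 1.43 in AAV-sgBaat. Genes of transforming growth factor beta signalling, the pathway that induces CD103 in tissue, were lower in 5 of 7 cases. Pmepa1 stood at -2.82, Ski at -1.46 and Smad3 at -0.95. A link between these genes and the lower Itgae was not tested. Of 4 targets of AHR 1 passed the filter, and it was called in none of the comparisons of classes. Heat shock and immediate early genes were lower for 6 of 13, with Hspa1a at -1.97. Without TMM scaling the median gene shifted by 0.21 and the share of called genes that were higher moved from 50.2% to 73.6%.

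CD90.2-dominant CD8 cells are a mixture, and splitting them by the effector chemokine Ccl5 (at least 3 UMIs, or 0 to 2) separated the 2 integrins. Ccl5-positive cells numbered 206, 517 and 235 and Ccl5-low cells 272, 95 and 82 in mock, AAV-sgSCR and AAV-sgBaat. Itga1 stood at 45.9 (35.7 to 58.0), 77.1 (67.3 to 87.9) and 72.6 (57.0 to 91.1) CPM in Ccl5-positive cells. In Ccl5-low cells it was 1.20 in mock, from 2 UMIs, and 0 in the other libraries, where setting the Ccl5-low sum to 3 UMIs makes the Ccl5-positive level at least 16.4-fold and at least 10.7-fold higher. Itgae went the other way in mock, with 12.6 (7.60 to 19.7) in Ccl5-positive and 52.2 (41.8 to 64.4) in Ccl5-low cells. In AAV-sgSCR and AAV-sgBaat its 2 levels overlapped, at 13.2 and 17.2 and at 22.6 and 20.4.

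**Figure D3:**
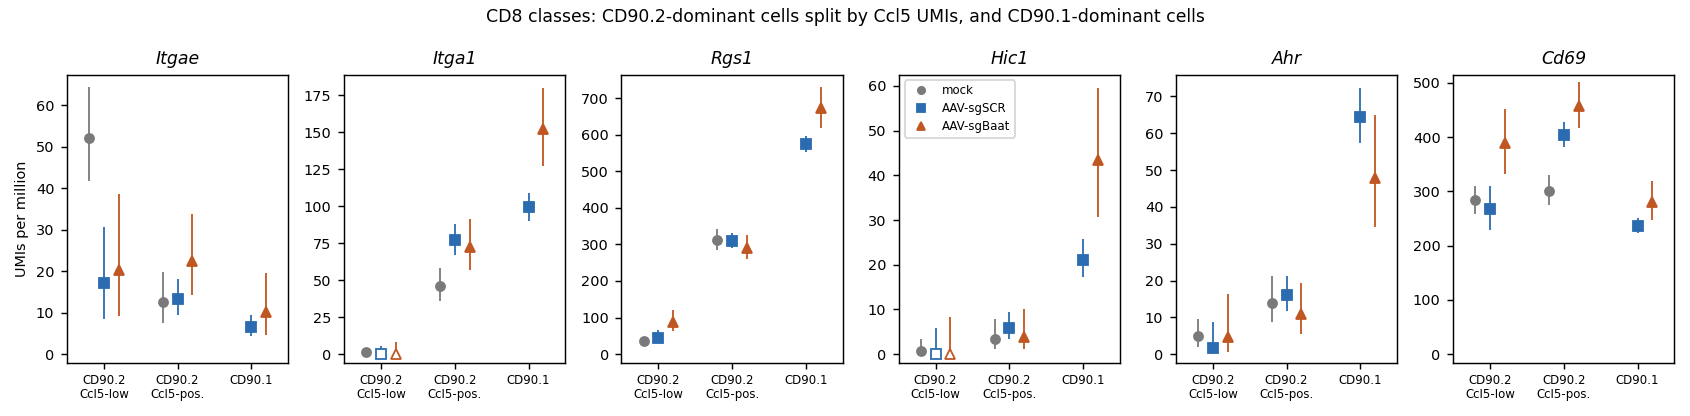
Level in CPM of 6 genes in Ccl5-low and Ccl5-positive CD90.2-dominant CD8 cells and in CD90.1-dominant CD8 cells, 1 point per library with exact Poisson 95% intervals, open at 0 UMIs. Itga1 is at or near 0 in Ccl5-low cells and highest in CD90.1-dominant cells, and the highest Itgae point is mock Ccl5-low at 52.2.

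The split was tested in a second edgeR fit with 8004 genes, which called 6.55% of genes higher and 4.34% lower in Ccl5-positive than in Ccl5-low cells. Itga1 was higher by 6.18 (SE 0.724, adjusted p = 5.18e-07), a fitted size that depends on the prior count since 2 sums are 0. Prdm1, which promotes effector differentiation, was higher by 2.85 (SE 0.472, adjusted p = 9.3e-05), and by 1.81 without mock (adjusted p = 0.0633). Rgs1 was higher by 2.44 (SE 0.333, adjusted p = 5.88e-06), from 312, 309 and 291 against 34.8, 45.3 and 88.2. Hic1 at 3.29 (adjusted p = 0.0289) rests on 1, 0 and 0 UMIs in Ccl5-low cells, and its call was lost under 7 alternatives, without any 1 library among them (2.57 to 5.54). Cd69 was at 0.06 (SE 0.16, adjusted p = 0.902), and Itgae at -1.41 lay at the threshold (SE 0.466, adjusted p = 0.05), and without AAV-sgBaat it passed at -1.83 (adjusted p = 0.0366). Circulation genes split by kind, 5 higher and 5 lower of 15: Cx3cr1, Klrg1 and S1pr5 of effector cells were higher by 6.45, 4.49 and 4.12, and S1pr1 and Klf2 lower at -1.18 and -0.90. Of 21 tested wider residency genes 8 were higher and 4 lower, led by Osgin1 at 4.08, Chn2 at 3.86 and Bhlhe40 at 3.68. Without TMM scaling the median gene shifted by 0.23 and the share of called genes that were higher moved from 60.2% to 85.9%.

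Set against Ccl5-positive cells alone, CD90.1-dominant cells kept higher Hic1 (2.52, SE 0.393, adjusted p = 2.61e-05), Ahr (1.68, SE 0.277, adjusted p = 5.71e-05) and Rgs1 (1.0, SE 0.283, adjusted p = 0.0166) and lower Cd69 (-0.92, SE 0.181, adjusted p = 0.000534). The background was 5.71% of genes higher and 6.56% lower. Ahr lost its call without AAV-sgSCR (1.34, adjusted p = 0.187). Rgs1 lost it without AAV-sgSCR (1.22), without AAV-sgBaat (0.86) and with mixed-lineage barcodes kept (0.54, adjusted p = 0.548) and Cd69 without the library block (-0.71, adjusted p = 0.359). Itga1 (0.78, adjusted p = 0.0738), Prdm1 (0.72, adjusted p = 0.0935) and Itgae (-1.10, adjusted p = 0.251) did not pass. Without mock Itga1 passed at 0.50 (adjusted p = 0.0311) and Itgae at -1.16 (adjusted p = 0.0237). S1pr1 was lower at -4.21 and Klf2 at -2.63, and 13 of 15 circulation genes were lower. Of 21 tested wider residency genes 8 were higher and 1 lower, led by Chn2 at 2.57, Osgin1 at 2.31 and Nr4a2 at 2.21. Without TMM scaling the median gene shifted by 0.15 and the share of called genes that were higher moved from 46.5% to 65.0%.

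Within CD90.2-dominant CD8 cells, those with an Itga1 UMI held Cxcr6 and Rgs1 more often than the rest. Cxcr6 was found in 59.4% (19 of 32, exact interval 40.6% to 76.3%) of cells with an Itga1 UMI in mock, 72.2% (83 of 115, 63.0% to 80.1%) in AAV-sgSCR and 71.4% (35 of 49, 56.7% to 83.4%) in AAV-sgBaat, and in 23.5%, 35.8% and 30.2% of the rest. Rgs1 was found in 81.2%, 68.7% and 61.2% against 29.1%, 43.1% and 34.0%. The intervals of the 2 kinds of cell did not meet for Cxcr6 or Rgs1 in any library. The rest include the Ccl5-low cells, in which Itga1 was at or near 0. Among Ccl5-positive cells alone, Cxcr6 was found in 63.3%, 72.2% and 71.4% of cells with Itga1 against 38.6%, 42.8% and 34.9% of those without, and the intervals overlapped in mock. Rgs1 was there found in 86.7%, 68.7% and 61.2% against 48.9%, 49.3% and 38.7%, with intervals that did not meet in any library. Over all CD90.2-dominant cells Cd69 was found in 65.6%, 78.3% and 73.5% against 64.8%, 75.5% and 65.7%, shares whose intervals overlap in each library. Median depth was 6306.5, 4403 and 3307 UMIs in cells with an Itga1 UMI and 5988, 5485 and 4372.5 in the rest. Thinned to 1000 UMIs over all these cells, the Cxcr6 shares were 33.3%, 35.6% and 36.4% against 5.76%, 16.4% and 14.2%. Thinning leaves fewer cells with an Itga1 UMI than the 32 of mock, 115 of AAV-sgSCR and 49 of AAV-sgBaat. Intervals of these thinned shares, and thinned Rgs1 shares, are not given here.

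**Figure D4:**
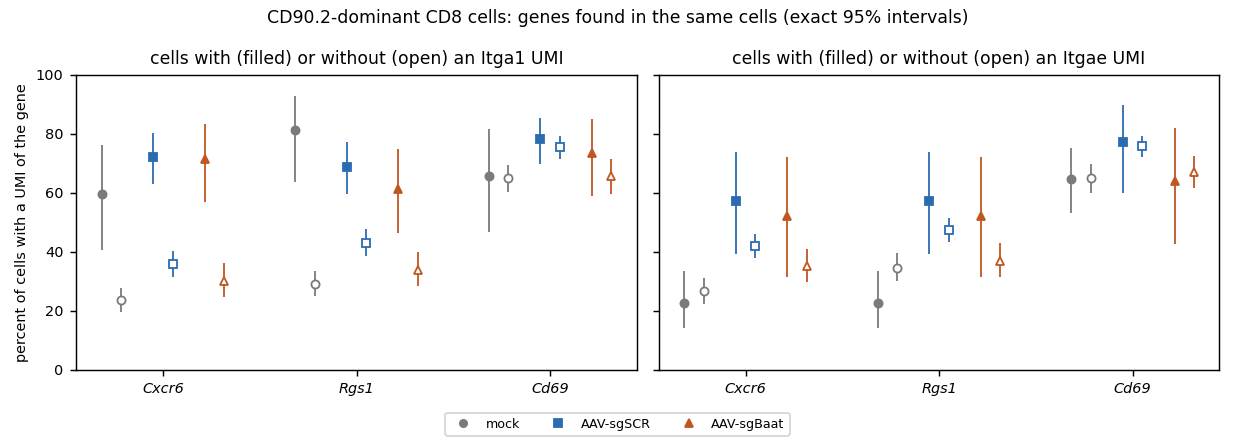
Percent of CD90.2-dominant CD8 cells with a UMI of Cxcr6, Rgs1 or Cd69, for cells with (filled) and without (open) a UMI of Itga1 (left) or Itgae (right), by library with exact 95% intervals. On the left the filled points lie above the open ones for Cxcr6 and Rgs1. On the right the intervals overlap for every pair.

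For cells with an Itgae UMI the intervals of these shares overlapped those of the remaining cells, which does not show that the shares are alike. Rgs1 was found in 22.8% of cells with Itgae (18 of 79) in mock against 34.6% of the rest. The direction was the other way in AAV-sgSCR, at 57.1% against 47.3%, and in AAV-sgBaat, at 52% against 37.0%. The Rgs1 intervals overlapped in each library. In mock 87 of 106 Itgae UMIs lay in Ccl5-low cells, and these shares are not split by Ccl5. Cxcr6 was found in 22.8%, 57.1% and 52% against 26.6%, 41.8% and 35.3%, also with overlapping intervals. Itga1 and Itgae UMIs met in 2, 7 and 7 cells, which is 6.25%, 6.09% and 14.3% of cells with Itga1, against 17.3%, 5.63% and 6.72% of cells without. CD90.1-dominant cells with a Hic1 UMI held Itga1 more often, in 48.0% against 30.9% in AAV-sgSCR and 61.3% against 33.9% in AAV-sgBaat, at median depths of 5417 against 4791.5 and 4427 against 3648.5 UMIs. In mock ILC1, 51 of 52 cells with an Itga1 UMI also held Rgs1, as did 27 of 35 without. In mock gamma-delta cells 24 of 24 did, against 47.7% of those without Itga1.

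The libraries were then compared within a class. Effects of the viral vector, of the guide against Baat and of the library itself cannot be told apart in these ratios. The label of mock also calls its liver native. With 1 library per group no test was possible, and a log2 ratio past 2-fold in genes with at least 20 UMIs over both libraries is called, with an exact interval for counting error. In these sums, fewer cells that carry an RNA and less RNA per cell cannot be told apart. Each group serves in more than 1 ratio. Between AAV-sgBaat and AAV-sgSCR, 3 of 40 pairs of gene and class were past 2-fold, where of all genes 9.27% were in CD90.1-dominant cells, 4.63% in CD90.2-dominant cells, 8.43% in gamma-delta cells, 5.78% in NK cells and 7.69% in ILC1. AAV-sgSCR against mock had 17 of 37 such pairs, with 7.58% of all genes in CD90.2-dominant cells, 21.1% in NKT, 13.6% in gamma-delta, 13.7% in NK and 11.5% in ILC1. AAV-sgBaat against mock had 9 of 27, with 9.54%, 18.1%, 17.6% and 15.3% in CD90.2-dominant, gamma-delta, NK and ILC1 cells. With at most 5% mitochondrial UMIs per cell, 7 of 34 pairs were past 2-fold between AAV-sgBaat and AAV-sgSCR.

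**Figure D5:**
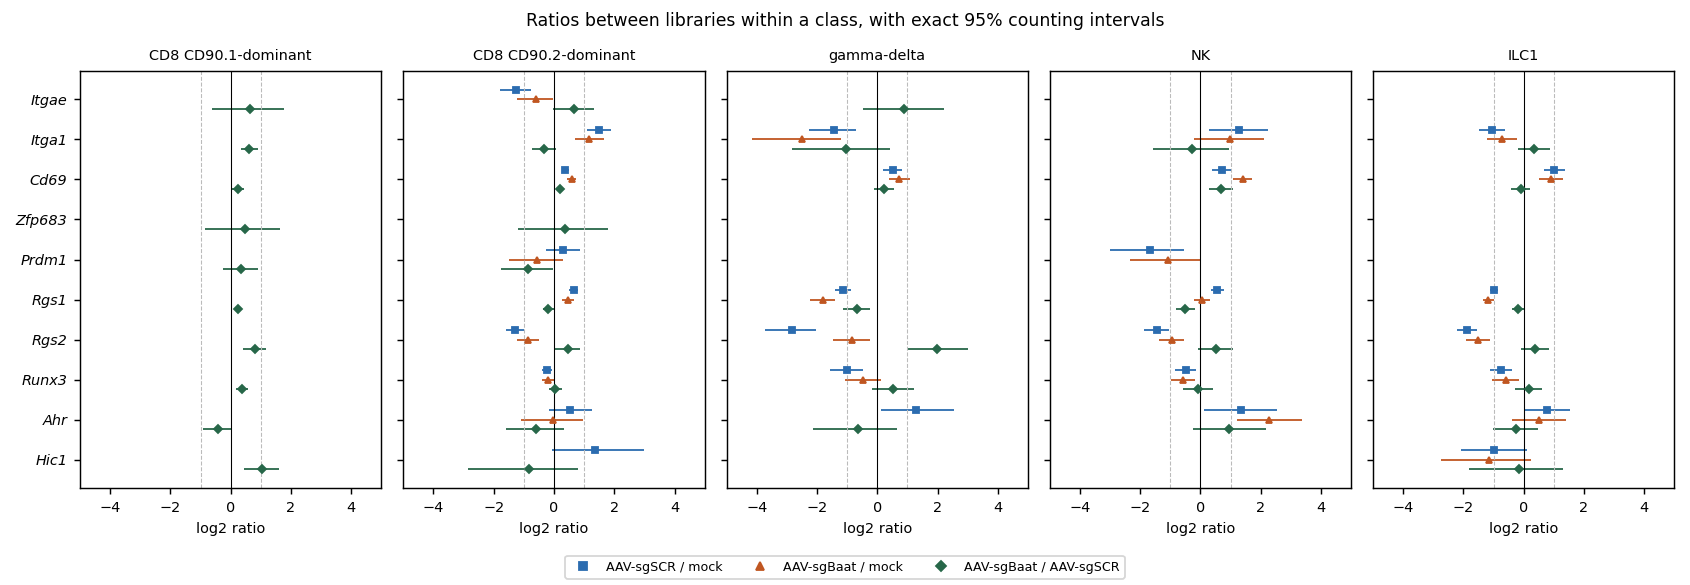
Log2 ratios between libraries for each of the 10 genes in 5 classes, with exact 95% counting intervals, and dashed lines at 2-fold. Pairs with fewer than 20 UMIs are not drawn, and the 3 ratios share libraries. Most ratios of AAV-sgBaat to AAV-sgSCR lie between the dashed lines, while Itga1 of mock is exceeded in CD90.2-dominant CD8 cells and not reached in gamma-delta cells and ILC1.

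The 3 pairs past 2-fold between AAV-sgBaat and AAV-sgSCR were Hic1 in CD90.1-dominant CD8 cells and Itga1 and Rgs2 in gamma-delta cells. Hic1 was 43.4 against 21.2 CPM, a log2 ratio of 1.04 (0.46 to 1.59). In gamma-delta cells Itga1 was lower at -1.05 (-2.82 to 0.42), from 5 and 19 UMIs, and Rgs2 higher by 1.98 (1.02 to 3.01), from 30 and 14 UMIs. Both gamma-delta ratios turned sign, Itga1 to 0.27 when cells were thinned and Rgs2 to -0.17 with mixed-lineage barcodes kept. In CD90.1-dominant cells 9 of 10 genes were higher in AAV-sgBaat (median 0.43 against -0.01 over all genes, of which 48.6% were higher), among them Itga1 by 0.61 (0.32 to 0.90), Rgs2 by 0.80 (0.42 to 1.18) and Cd69 by 0.25 (0.04 to 0.45). Ahr was the exception at -0.43 (-0.93 to 0.04). Of the wider residency genes 10 were higher and 12 lower in the same ratio (median -0.08). In CD90.2-dominant cells none was past 2-fold, and 5 of 10 were higher. Itgae was there at 0.65 (-0.04 to 1.33) and Itga1 at -0.32 (-0.72 to 0.07).

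Against mock, the integrins of CD90.2-dominant CD8 cells differed in opposite directions in both AAV libraries. Itga1 was higher by 1.49 (1.10 to 1.90) in AAV-sgSCR and by 1.18 (0.69 to 1.67) in AAV-sgBaat, and Itgae lower at -1.26 (-1.78 to -0.76) and -0.61 (-1.23 to -0.03). Cxcr6 was higher by 1.46 and 1.31, S1pr1 lower at -1.44 and -1.24, and 9 and 10 of 15 circulation genes were past 2-fold lower. The make-up of the class differed along with these values: Ccl5-low cells were 272 of 478 in mock, 95 of 612 in AAV-sgSCR and 82 of 317 in AAV-sgBaat. Within Ccl5-positive cells the ratios to mock were 0.75 (0.35 to 1.16) and 0.66 (0.17 to 1.16) for Itga1 and 0.06 (-0.77 to 0.94) and 0.84 (-0.10 to 1.79) for Itgae. Within Ccl5-low cells Itgae was lower at -1.60 (-2.66 to -0.69) and -1.36 (-2.54 to -0.37). Rgs2 was lower at -1.30 (-1.60 to -1.0) in AAV-sgSCR, a ratio that turned to 0.28 with mixed-lineage barcodes kept.

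In ILC1 and gamma-delta cells, the innate-like classes with the most Itga1 in mock, the AAV libraries had less. The Itga1 ratio to mock in ILC1 was -1.06 (-1.49 to -0.64) in AAV-sgSCR and -0.71 (-1.22 to -0.22) in AAV-sgBaat, and in gamma-delta cells -1.45 (-2.27 to -0.69) and -2.50 (-4.17 to -1.20). Rgs1 was lower at -0.99 and -1.18 in ILC1 and at -1.13 and -1.81 in gamma-delta cells. Rgs2 was lower at -1.88 and -1.51 in ILC1, at -1.44 and -0.94 in NK cells and at -2.82 and -0.84 in gamma-delta cells. B cells, whose levels are given above, also had less Rgs1 and Rgs2 in both AAV libraries than in mock. Lower Rgs1 and Rgs2 were thus found outside the innate-like classes too, though B cells differed in kind between the libraries. A panel of 5 immature lymphocyte genes summed in B cells to 16.8 CPM in mock, 491 in AAV-sgSCR and 512 in AAV-sgBaat. The part of this in their Rgs1 and Rgs2 levels was not tested. Rgs1 was not lower in NK cells (377 against 556 and 393) or CD90.2-dominant CD8 cells (167 against 261 and 230). Cd69 was higher in ILC1, NK and gamma-delta cells, but not in these classes alone. It was also higher in CD90.2-dominant CD8 cells, at 379 and 437 CPM against 292 in mock. NKT cells had 378 in AAV-sgSCR against 238 in mock. In B cells, whose levels are given above, Cd69 was lower in both AAV libraries. The Cd69 ratios to mock were 1.01 (0.67 to 1.36) and 0.91 (0.51 to 1.30) in ILC1, 0.72 and 1.40 in NK cells and 0.51 and 0.74 in gamma-delta cells. Ahr was higher in NK cells by 1.35 (0.11 to 2.52) and 2.28 (1.20 to 3.36), from 17 UMIs in mock and 11 and 16 in the AAV libraries. NK cells also had less Prdm1, at -1.66 (-3.02 to -0.56) and -1.07 (-2.33 to -0.03), and more Itga1, by 1.27 (0.28 to 2.23) and 0.99 (-0.23 to 2.09). In NKT cells Ahr was the 1 gene past 2-fold, at 1.67 (0.03 to 3.10) from 6 UMIs in AAV-sgSCR.

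Stress and immediate early genes and RNA of other lineages also differed between the libraries. The 13 stress and immediate early genes summed to 10818 CPM in mock ILC1 against 6339 and 7507 in AAV-sgSCR and AAV-sgBaat, to 9393 against 6385 and 6857 in NK cells, and to 9313 against 6432 and 6651 in gamma-delta cells. In CD90.2-dominant cells the sums were 4215, 3591 and 3946. In CD90.1-dominant cells they were 3201 in AAV-sgSCR and 3388 in AAV-sgBaat. There 10 of the 13 genes were higher in AAV-sgBaat, 4 of them past 2-fold. The panel of 5 immature lymphocyte genes (such as Dntt and Rag1) summed to 2.18 and 30.8 CPM in the same cells. Over the classes compared, this panel reached at most 2.60 CPM in mock and 3.69 in AAV-sgSCR. In AAV-sgBaat it ran from 10.9 to 35.3 CPM, highest in ILC1. The macrophage and monocyte panel of 7 genes reached at most 19.0 CPM in mock classes, 71.9 in AAV-sgSCR and 81.1 in AAV-sgBaat. Gamma-delta cells also differed in kind, with Cd163l1, a gene of interleukin-17 producing gamma-delta cells, at 70.3, 398 and 384. The part of these differences in the library ratios was not tested.

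Each gene was last set beside all others for likeness of pattern, as Pearson's r of log2(CPM + 10) over the 16 sums, which share libraries, depth and gates, so that r is a description only. The best of 5288 or 5289 genes with a mean of at least 20 CPM were Gimap7 (0.88) and Abi3 (0.87) for Itga1, and Actn2 (0.87) and Rexo2 (0.85) for Itgae. Rgs1 lay nearest to Mob3a (0.87) and Cd160 (0.86), an NK and ILC1 receptor, and Rgs2 to Zfp800 (0.90) and Rhob (0.89). Runx3 lay nearest to Dctn4 (0.86) and the chemokine Ccl4 (0.85), Cd69 to Scand1 (0.84) and Cotl1 (0.82), and Prdm1 to Smarca5 (0.88) and Nab1 (0.85). Ahr lay nearest to Sec11c (0.87) and Fis1 (0.85), and Hic1 to Atxn7l3b (0.90) and Nedd9 (0.85). For Zfp683 the nearest were Gimap3 (0.84) and Itga1 (0.82), the only pair among the 10 genes.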

How the data were processed

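Raw UMI counts per gene and barcode were used as the authors deposited them, per the file headers made with Cell Ranger 6.0.1, and on mm10 per the submitters' processing notes. The 3 antibody tags were read from the same matrices. The 10 genes, the gates and the lists were chosen with earlier results of these data known. T cells needed 2 UMIs of Cd3d, Cd3e and Cd3g, and CD8 cells 2 of Cd8a and Cd8b1, no Cd4 and no Trdc. Gamma-delta, NKT, NK and ILC1 gates used Trdc and Tcrg constant genes, Zbtb16 and Trav11, Ncr1, Klrb1c and Klre1, and Klra against Il7r, Tmem176a and related genes. Barcodes with RNA of another lineage stood in for a doublet caller. Sums of at least 20 cells were tested with edgeR 4.0.16 in R 4.3.3 (filterByExpr, TMM, quasi-likelihood, library as block, Benjamini-Hochberg), which was tested on simulated data, with DESeq2 1.42.0 as an alternative. Levels, exact intervals and 2-fold calls were computed in Python 3.11.15 with scipy 1.17.1 and pandas 2.3.3. Beside the 10 genes the text names Klf2, S1pr1, Cxcr6 and the 2 genes most alike in pattern. It also names up to 3 called genes per list and comparison, from those with the largest fold change. Not every list is described in every comparison, so a list left out can still hold called genes. A side of a ratio at 0 was set to 3 UMIs. Intervals are at 95%. The labels name a hashtag where the matrices name F4/80, and that tag was not used. In the lists, 1 gene is not reported here.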

Additional observations from a re-analysis of the deposited data

Results flagged for a closer look

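Itgae separated gamma-delta from CD90.2-dominant CD8 cells in opposite directions in mock and in the AAV libraries. The within-library log2 ratio of gamma-delta to CD8 was -2.10 (-4.40 to -0.51) in mock, 1.32 (0.23 to 2.28) in AAV-sgSCR and 1.55 (0.41 to 2.57) in AAV-sgBaat. The difference between libraries was not tested, since each group is 1 library. It rests on 3, 11 and 11 UMIs in gamma-delta cells and 106, 49 and 32 in CD8 cells. In gamma-delta cells Cd163l1 stood at 70.3, 398 and 384 CPM, and in CD8 cells Ccl5-low cells were 272 of 478, 95 of 612 and 82 of 317, and the part of either in the ratio was not tested.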

How the results depend on the processing

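Of fold changes between classes under the alternatives, 765 kept direction and side of the threshold, 69 lost the call, 37 gained one and 29 changed sign. Thinning to 1000 UMIs left 6 of the 10 genes testable, among 2705 genes (2428 with the Ccl5 split) against 7194 (8004), and of these 2 were called in ILC1 minus NK (main 5), 0 in NKT (2), 1 in gamma-delta (3), 4 in CD90.1 minus CD90.2 (8) and 2 in Ccl5-positive minus low (4), and over all genes 163, 163, 176, 373 and 372, with 265 for CD90.1 minus Ccl5-positive. Without the library block 1 was called in NKT, 1 in gamma-delta, 3 in CD90.1 minus CD90.2 and 2 in CD90.1 minus Ccl5-positive (4), and over all genes in order 289, 196, 171, 625, 332 and 472. With mixed-lineage barcodes kept 1 was called in gamma-delta and 3 in CD90.1 minus CD90.2, and over all genes 274 in NKT, 193 in gamma-delta, 679 and 420 in the CD90.1 comparisons. With no filter on low counts 8 were called in ILC1 minus NK, 5 in NKT and 7 in Ccl5-positive minus low, without TMM 4 in NKT, and with the NK lineage split by Klra genes 3 in ILC1 minus NK. DESeq2 called 4 in CD90.1 minus CD90.2, and 847 and 619 genes in the CD90.1 comparisons against 1286 and 982 from edgeR. At most 5% mitochondrial UMIs gave 373 genes in NKT and 7 of 34 pairs past 2-fold between AAV-sgBaat and AAV-sgSCR (3 of 40).

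Leaving out 1 library in turn, the genes among the 10 called ranged from 3 to 5, 1 to 4, 3 to 3, 4 to 7, 2 to 4 and 2 to 6 in the order above, and all genes called from 292 to 401 (main 537), 201 to 493 (604), 197 to 433 (450), 559 to 1433 (1286), 430 to 656 (871) and 277 to 1239 (982). The lowest came without mock for ILC1, NKT and Ccl5-positive, without AAV-sgBaat for gamma-delta, and without AAV-sgSCR for both CD90.1 comparisons. Where a class keeps 1 library, its spread is taken from the other classes.

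Signs turned as follows. In ILC1 minus NK, Cd69 became -0.11 thinned and Runx3 -0.0033 with mixed-lineage barcodes. In NKT, Cd69 became 0.0285 thinned, Prdm1 -0.0959 with a looser NKT gate chosen after seeing the data and -0.032 with DESeq2, and Rgs1 -0.0673 with mixed-lineage barcodes and -0.11 at 5% mitochondrial UMIs. In gamma-delta, Itgae became -0.12 with mixed-lineage barcodes and -0.32 with DESeq2, Prdm1 0.0163 at 5% mitochondrial UMIs, 0.0213 without Trac cells and 0.0815 without TMM, and Runx3 0.14 thinned and 0.11 without TMM. Rgs2 became -0.0644 thinned and -0.0192 without the block in CD90.1 minus CD90.2, and -0.0499 and -0.0049 against Ccl5-positive cells. In Ccl5-positive minus low, Cd69 became -0.0147 with mixed-lineage barcodes and -0.18 thinned. Leaving out 1 library turned 8 fold changes. In NKT, Itgae ranged from -7.94 to 1.08 (without mock) and Prdm1 from -7.31 (without mock) to 0.63. In gamma-delta, Itgae ranged from -0.39 (without AAV-sgBaat) and -0.35 (without AAV-sgSCR) to 1.24, Itga1 from -0.44 (without mock) to 1.58, Prdm1 from -0.52 to 0.29 and Runx3 from -0.31 to 0.0985 (both without AAV-sgSCR). In Ccl5-positive minus low, Cd69 ranged from -0.0604 to 0.24 and Rgs2 from -0.0392 to 0.77 (lowest without AAV-sgSCR). Among library ratios Rgs2 became -0.17 (AAV-sgBaat over AAV-sgSCR, gamma-delta) and 0.28 (AAV-sgSCR over mock, CD90.2) with mixed-lineage barcodes, and Itga1 0.27 thinned (AAV-sgBaat over AAV-sgSCR, gamma-delta). The cause was not tested. No paired analysis was possible between the groups because each is 1 library, whereas classes were compared with the library as a block. Sparse genes such as Zfp683 and Hic1 are limited by depth.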
